A study of Mus musculus with 4 samples.

Results

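The corticosteroid system of the mouse hippocampus was examined through its receptors and a set of their target genes. The set held 9 listed genes: the glucocorticoid receptor Nr3c1, the mineralocorticoid receptor Nr3c2, and the targets Sgk1, Fkbp5, Klf9, Zbtb16, Pdk4, Nfkbia and Tsc22d3. Every probe set that the array's annotation assigns to exactly 1 gene symbol, that symbol being on the list, was taken, which gave 11 probe sets for 8 genes, of 8251 named genes in all. The annotation names no probe set for Nr3c2, which was therefore not analysed here. Total RNA of 4 samples of mouse hippocampus was measured with 1 Affymetrix Murine Genome array (design MG_U74Av2) per sample, an array that reads each transcript with probe sets of short oligonucleotides. All 4 samples form 1 group, called replicates in the series title. The labels give no strain, genotype, sex, age, treatment or time of day for them, and nothing states that they came from separate animals, so the spread between them may be technical. The samples are called 1 to 4, which are only names.

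Corticosterone, the main glucocorticoid of mice, crosses membranes and binds a pair of related nuclear receptors that are held by chaperone proteins until the hormone arrives. The mineralocorticoid receptor binds it tightly and is abundant in hippocampal neurons, while the glucocorticoid receptor needs more hormone and is engaged during stress and at the daily hormone peak. Both receptors then act on DNA, at palindromic elements made of a pair of hexamers, and the hippocampus is a known target of this feedback. Target genes include a kinase (Sgk1), a cochaperone that lowers the receptor's hormone affinity (Fkbp5), DNA-binding regulators (Klf9, Zbtb16), a metabolic kinase (Pdk4) and inhibitors of inflammatory transcription (Nfkbia, Tsc22d3).

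The promoter windows of the members are shown first. Sgk1, the member with the widest range among those tested, has the letters of a complete receptor element in 1 of its windows. A link between these letters and its range was not tested. RefSeq windows of 300 bases (250 before to 50 after a start site, build GRCm38.p6) were searched for 7 of the 9 genes (those of Nr3c1 and Zbtb16 were not used here). Both strands were searched for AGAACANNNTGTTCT, the consensus palindrome of the element, and for the single hexamer AGAACA, which overlaps it. The palindrome was found in 3 of 32851 windows of all genes (0.00913%), those of Sgk1, Acnat2 and Gm35041. Among the 14 windows of members, it was in 1, and 13 did not hold these letters. The 250 bases before that Sgk1 start, chr10:21993640-21993889 on the plus strand, follow with the palindrome in capitals, and those before the Nfkbia start, chr12:55492648-55492897 on the minus strand, with a match to the NF-kappaB consensus in capitals.
Sgk1: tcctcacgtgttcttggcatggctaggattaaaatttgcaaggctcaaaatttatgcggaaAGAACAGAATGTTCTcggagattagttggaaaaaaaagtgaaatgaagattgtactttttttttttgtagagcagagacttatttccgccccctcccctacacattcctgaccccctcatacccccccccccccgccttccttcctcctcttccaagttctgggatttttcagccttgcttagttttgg
Nfkbia: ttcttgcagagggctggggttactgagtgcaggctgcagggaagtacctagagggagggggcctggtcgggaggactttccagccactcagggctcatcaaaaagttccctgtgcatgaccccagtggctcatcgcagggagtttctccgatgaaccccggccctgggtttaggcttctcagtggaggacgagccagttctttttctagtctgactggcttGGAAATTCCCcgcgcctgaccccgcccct

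The Sgk1 palindrome, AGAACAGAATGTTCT, lies at chr10:21993701-21993715, from -189 to -175 relative to that start. It lies 965 bases before the Sgk1 start farthest downstream among the 6 listed, and after every listed start other than these. The same window holds a further hexamer at -242 to -237, and the Sgk1 windows of 2 other starts hold 1 hexamer each. The hexamer was also found in 1 of the 3 windows of Tsc22d3, at -185 to -180, and in none of the windows of Fkbp5, Klf9, Pdk4, Nfkbia and Nr3c2. The hexamer occurred in 19.0% of all windows. The NF-kappaB consensus, the site of the factor that Nfkbia protein holds back, was in 8.46% of all windows, and among members in that of Nfkbia, at -29 to -20, and in 1 of Tsc22d3. These matches describe letters in short windows and were not tested for binding.

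The receptor itself gave little signal. Signals are in normalized array units, and the 25th percentile of all values, 27.7 units, served as a floor below which values have no order. Nr3c1 (probe set 98818_at) gave 60.9, 50.8 and 33.8 units in samples 1, 2 and 4 and 21.3 units in sample 3, which is below the floor. Its mean was 41.7 ± 17.6 units (SD, n = 4). Only probe sets with a mean above 104 units entered the test of spread, 6210 of 12422, and Nr3c1 was not among them. Such a signal cannot be told from background without detection calls, and no statement is made here on the abundance of the receptor.

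Sgk1, a kinase that controls ion channels and transporters, was much higher in sample 4 than elsewhere. Probe set 97890_at read 439.9, 472, 528 and 1237 units in the samples 1 to 4. The mean was 669 ± 381 units (SD, n = 4). Samples 1 to 3 lay within 1.20-fold of one another, and sample 4 was 2.34-fold above the next highest. On the log2 scale, sample 4 exceeded the mean of the other 3 by 1.37, larger than in 99.6% of all tested probe sets. The SD of Sgk1 over samples was 0.69 log2 units, against 0.21 for probe sets of like signal. In RNA from whole tissue, a different share of expressing cells and a different amount of RNA per cell cannot be told apart.

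Fkbp5, the cochaperone that opposes hormone binding, was higher in sample 4 by less. Probe set 94297_at read 533, 693, 707 and 887 units in this order of samples (705 ± 145, SD, n = 4). Samples 2 and 3 differed by 1.02-fold, sample 1 was lowest, and sample 4 was 1.26-fold above sample 3. Its sample 4 deviation of 0.47 log2 units was the smallest among the tested probe sets of the members.

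Klf9, a zinc finger transcription factor, was read by a pair of probe sets that were both highest in sample 4 and differed in sample 3. Probe set 93528_s_at read 639, 779, 1426 and 1545 units (1097 ± 455, SD, n = 4), so that samples 3 and 4 were together high and lay 1.08-fold apart. Probe set 93527_at gave 199, 249, 176 and 354 units (245 ± 79.3, SD, n = 4), with sample 3 the lowest. The ratio of the first to the second therefore ranged from 3.12 in sample 2 to 8.11 in sample 3. The suffix _s_at marks a probe set whose probes may match more than 1 sequence, and which of the pair follows Klf9 mRNA more closely was not tested.

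Zbtb16, a BTB-domain zinc finger factor, was also read by a pair, and these disagreed on sample 4. Probe set 92202_g_at gave 758, 839, 943 and 1468 units (1002 ± 319.7, SD, n = 4), highest in sample 4 by 1.56-fold over sample 3. Probe set 92201_at, whose mean was too low for the test, gave 51.8, 35.3, 126 and 17.3 units (57.6 ± 47.6, SD, n = 4), highest in sample 3 and below the floor in sample 4. A direction for Zbtb16 in sample 4 thus rests on the brighter probe set, whose suffix _g_at also marks probes shared between related sequences of the design.

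**Figure D1:**
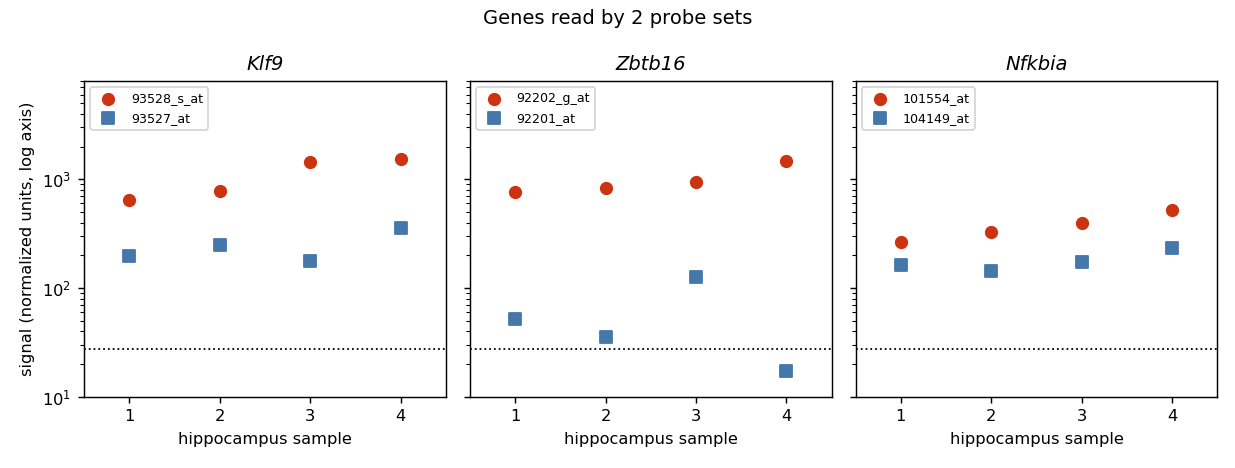
Signal (normalized units, log axis) of the 3 genes read by 2 probe sets each, by hippocampus sample; each point is 1 array and the dotted line is the floor of 27.7 units. Both probe sets of Klf9 and of Nfkbia are highest in sample 4, whereas those of Zbtb16 part there, at 1468 and 17.3 units.

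Pdk4, a mitochondrial kinase that restrains pyruvate oxidation, had signals of 115, 74.5, 93.5 and 176 units (115 ± 43.9, SD, n = 4; probe set 102049_at). Sample 4 was 1.52-fold above sample 1, the next highest, and sample 2 was lowest. Its mean over samples 1 to 3 was 94.4 units, so it passed the signal filter through sample 4 alone. Nfkbia, which keeps NF-kappaB in the cytoplasm, gave 262, 330.0, 394 and 519.6 units with probe set 101554_at (376 ± 109.6, SD, n = 4). Its second probe set, 104149_at, gave 161, 142, 172 and 234 units (177 ± 39.9, SD, n = 4). Both were highest in sample 4, by 1.32-fold and 1.36-fold over sample 3, and they parted on the lowest sample, which was sample 1 for the first and sample 2 for the second.

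Tsc22d3 (GILZ), a leucine zipper protein that mediates anti-inflammatory effects of glucocorticoids, was read by a dim probe set that was lowest in sample 4. Probe set 94212_at read 75.6, 129.6, 97.7 and 29.2 units (83.0 ± 42.2, SD, n = 4). The value in sample 4 was close to the floor, and sample 2 was the highest. The mean was below the signal filter. With a filter at the 25th percentile of means, which all 11 probe sets passed, Tsc22d3 had an adjusted p of 0.951, the dimmer Zbtb16 probe set 0.960 and Nr3c1 0.992 (limma, one-sided F test of the variance, Benjamini-Hochberg adjustment).

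**Figure D2:**
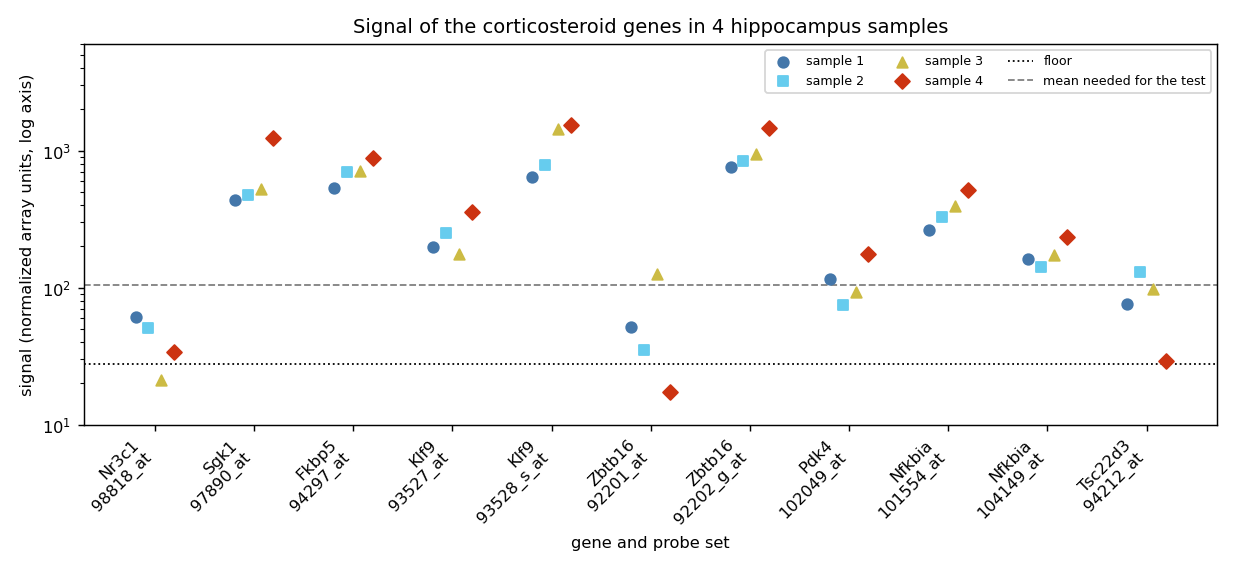
Signal (normalized units, log axis) of the 11 probe sets in samples 1 to 4, 1 point per array, with the floor (dotted, 27.7 units) and the mean needed for the test (dashed, 104 units). Sample 4 is the highest point for 8 of the 11 probe sets and the lowest for Tsc22d3 and Zbtb16 92201_at.

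Across the set, sample 4 was the highest for 8 of 11 probe sets, and samples 1, 2 and 3 for 1 each. Over all 12422 probe sets without a filter, sample 4 was the highest in 26.4%. The 8 were the probe sets that passed the signal filter, where 31.1% of 6210 were highest in sample 4, and the 3 that did not pass were Nr3c1, Tsc22d3 and Zbtb16 92201_at. The filter favours a probe set that is high in any sample, so this split gives no support to the count. Among the 8 tested, 5 were lowest in sample 1, against 23.1% of all tested. The deviation of sample 4 from the other 3 had a median of 0.79 log2 units (range 0.47 to 1.37), against 0.02 over all tested probe sets. Samples 1, 2 and 3 had medians of -0.49, -0.34 and -0.04. The members were listed with this pattern known, and their values describe it.

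**Figure D3:**
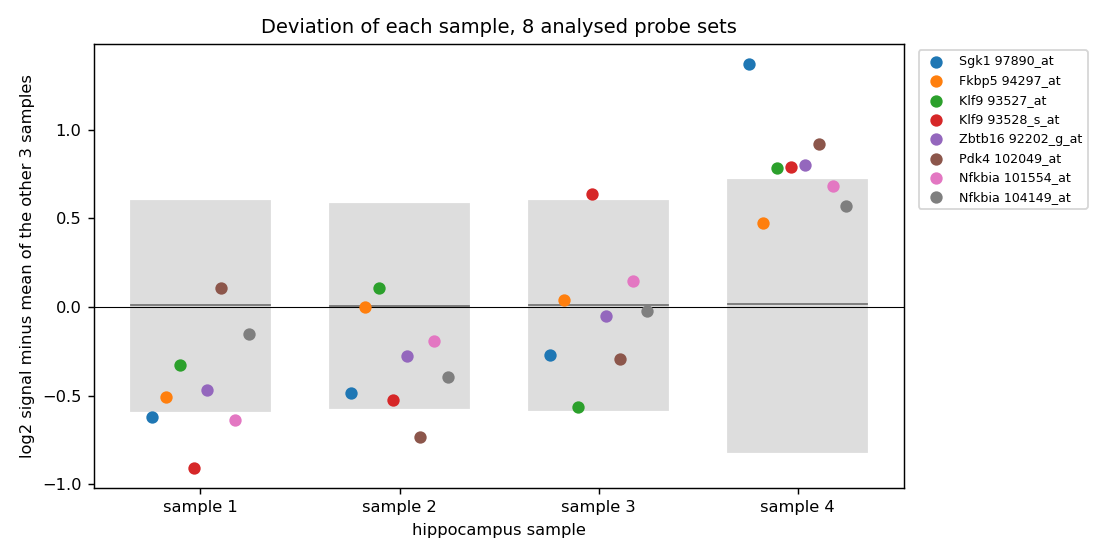
Difference in log2 signal between each sample and the mean of the 3 others, for the 8 tested probe sets (coloured points); grey bars span the 5th to 95th percentile of all 6210 tested probe sets and the grey line is their median. All 8 points lie above 0 in sample 4, from 0.47 to 1.37, and 7 of 8 lie below 0 in sample 1.

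No member's spread passed the test over all probe sets. The test asks whether a probe set varied more over the 4 samples than others of like signal. After adjustment 0 of 8 passed (limma, one-sided F test, Benjamini-Hochberg adjustment, smallest adjusted p = 0.654), against 0% of all tested. Without adjustment 2 of 8 had a p under 0.05, Sgk1 and Klf9 93528_s_at, against 5.62% of all tested. The adjusted p from limma was 0.654 for both, 0.898 for Zbtb16 92202_g_at and 0.953 to 0.994 for the other 5. In 4 of 8 the samples spanned 2-fold or more, Sgk1 (2.81-fold), Klf9 93528_s_at (2.42-fold) and 93527_at (2.01-fold), and Pdk4 (2.36-fold), against 15.2% of all tested. For Pdk4 this range belongs to a dim probe set, whose SD of 0.53 log2 units compares with 0.45 at its signal. Without sample 4, 1 of the members had an unadjusted p under 0.05, Klf9 93528_s_at, and the range of Sgk1 dropped from 1.49 to 0.25 log2 units. The ranges of Fkbp5, Klf9 93527_at, Zbtb16 92202_g_at, Nfkbia 101554_at and Nfkbia 104149_at were then 0.42, 0.50, 0.31, 0.58 and 0.27. Pdk4 was then too dim for the test, and its values in samples 1 to 3 spanned 0.63 log2 units in place of 1.24.

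**Figure D4:**
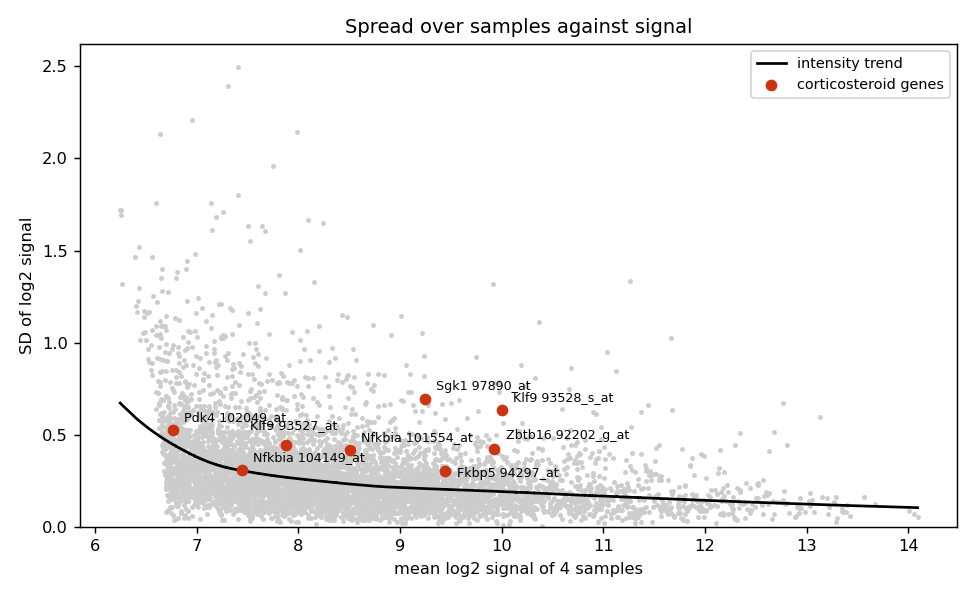
SD of log2 signal over 4 samples against mean log2 signal for the 6210 tested probe sets (grey), the intensity trend (line) and the 8 tested probe sets of the members (red, labelled). Sgk1 and Klf9 93528_s_at lie farthest above the line, at 0.69 and 0.63, and Nfkbia 104149_at lies on it.

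Sample 4 also differed in measures of RNA completeness and of other genes, whose part in the members' values was not tested. The ratio of 3' to 5' signal was highest there for 5 of 5 control transcripts: for beta-actin 2.03 against 1.51 to 1.84 in the others, and for Gapdh 1.15 against 0.864 to 0.981. For the transferrin receptor the 5' signal in sample 4 was below the floor. The summed signal of 10 pan-neuronal markers was lowest in sample 4, at 21814 units against 24728 to 28184. That of 6 oligodendrocyte markers was 10805.5 units there, against 7508 to 10234, and that of 6 meningeal markers 9702 against 6196 to 7279, in which Ptgds gave 6734 units. Sample 4 was the highest for 4 of the 6 oligodendrocyte and 3 of the 6 meningeal markers, against 31.1% of all tested. It was the lowest for 1 of each, among them Mag (528, 818, 425 and 403 units in samples 1 to 4). The sum of 8 microglial markers was lowest in sample 4, at 3469.5 units against 3665 to 4010.2. Singly, 3 of the 8 were lowest there, against 30.7% of all tested, and 1 was highest, Tyrobp (126, 154, 127 and 207 units). Sums for astrocytes (8 genes), vessels (5), choroid plexus (4) and red blood cells (4) lay in sample 4 between those of other samples, at 13396, 1065, 3407 and 8739 units. Singly, sample 4 was the highest for 2, 2, 1 and 0 markers of these lists, against 31.1% of all tested. It was the lowest for 2, 2, 0 and 0, against 30.7%. No measured marker of these lists was listed at 0. Of the listed granule and pyramidal cell markers, 8 of 9 measured ones were bright enough for the test, and Camk2b, the brightest, gave 4628 ± 433 units (SD, n = 4). Prox1 was too dim for it (64.1, 27.35, 108.6 and 16.7 units in samples 1 to 4). The identity of the tissue was not tested with them. Camk2a, the kinase subunit of excitatory neurons and the widest of that list, gave 357, 630, 321 and 29.4 units in samples 1 to 4. Its sample 4 value lay close to the floor, and the range was 21.4-fold (limma adjusted p = 0.356). Of these 8 markers, 2 were lowest in sample 4, Camk2a and Wfs1 (539, 725, 632 and 449 units), and 3 were highest there, against 30.7% and 31.1% of all tested.

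Other genes reported to respond to corticosteroids were listed from general knowledge, with earlier results of these data known. Their counts therefore describe the samples and give no independent support to the pattern of the members. Of 36 listed, 31 were measured and 23 tested. Sample 4 was the highest for 13 of the 23 and the lowest for 4, against 31.1% and 30.7% of all tested probe sets, and its median deviation was 0.25 log2 units (0.16 without sample 2, and 0.14 with no signal filter). None passed the test after adjustment, and 1 had an unadjusted p under 0.05, Irs2, an insulin receptor substrate, which was highest in sample 3 (68.3, 148, 301 and 199 units in samples 1 to 4). The clock gene Per1 gave 263, 285, 334 and 422 units, highest in sample 4. Angptl4, which inhibits lipoprotein lipase, gave 84.9, 139.7, 169.8 and 195 units. Cdkn1a, a cell cycle inhibitor, was highest in sample 3 (96.7, 64.1, 257 and 74.6 units), and Gadd45g, a stress-induced growth regulator, was lowest in sample 2 (171, 103, 232 and 223 units). Named after their values had been seen, the transcription factor genes Cebpb (235, 282, 298 and 410.4 units) and Cebpd (295, 350.0, 296 and 495 units) and the phosphatase gene Dusp1 (351, 369, 304 and 535 units) were highest in sample 4, as was the metallothionein gene Mt1 (3942, 4436, 4359 and 6325 units). Its relative Mt2 was highest there by little (5401, 5490, 5365 and 5979 units). Ddit4, an inhibitor of mTOR signalling, was not highest there (447, 376, 447 and 376 units). The 4 genes lowest in sample 4 were Gpd1 (568, 783, 660 and 477 units), Cry2 (276, 286, 285 and 221 units), Lcn2 and Hif3a. For Lcn2 and Hif3a the deviations were small, at -0.13 and -0.08 log2 units.

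Genes of the receptor's machinery were described by the same counts. Of 14 tested chaperone genes, 3 were highest in sample 4 and 5 lowest (against the same 31.1% and 30.7%), with a median deviation of -0.03 log2 units, which was 0.09 when arrays were scaled to 1 median instead, with 6 highest. Without sample 1, 5 were highest in sample 4. Hsp90aa1, the main chaperone that holds the receptor ready for hormone, gave 6130.4, 5109, 6558 and 5544 units. Hspa8, which hands the receptor to it, was lowest in sample 4 (3576, 3034, 3331 and 2387 units), as were Stip1, which bridges both chaperones (466, 382, 313 and 310.4 units), and Dnajb1 (298, 216, 296 and 168 units). Ppp5c, a phosphatase of receptor complexes, had the widest range of the list (197, 169, 221 and 74.6 units, 2.97-fold). None of the 14 had an unadjusted p under 0.05.

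Of 12 tested coregulators, 1 was highest in sample 4 and 5 lowest (against 31.1% and 30.7% of all tested), with a median of -0.15. Without sample 3, 4 were highest there, though fewer samples make each more often the highest. Med1, a Mediator subunit that contacts nuclear receptors, gave 364, 121, 306 and 202 units and was the only 1 with an unadjusted p under 0.05. Nrip1, a corepressor, was lowest in sample 1 (125, 184, 255 and 233 units), and the coactivator gene Ncoa1 gave 329.6, 323, 279 and 263 units. Among 5 tested genes of steroid supply, with 2 highest in sample 4 (4 with median scaling), Hsd11b1, which regenerates active corticosterone inside cells, gave 254, 332, 160.0 and 326 units, lowest in sample 3. H6pd, which supplies its cofactor, stayed between 716 and 782 units. Of the hormone axis genes, 1 of 7 measured was tested, Oxt (218, 174, 219 and 337 units, highest in sample 4).

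**Figure D5:**
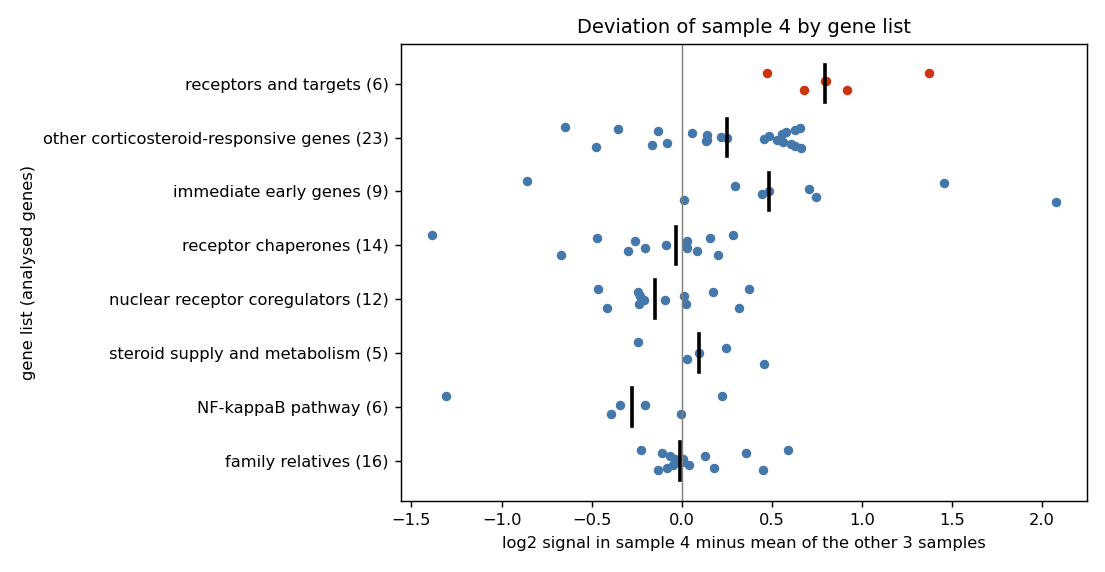
Difference in log2 signal between sample 4 and the mean of the 3 others, 1 point per tested gene, by gene list with the number of tested genes; black bars are list medians, and each gene is shown by its brightest probe set. All 6 points of the receptor and target list are target genes and lie right of 0, and the chaperone list is centred near 0. Nr3c1, Tsc22d3 and Zbtb16 92201_at, with sample 4 deviations of -0.38, -1.76 and -1.15, were too dim for the test and are not drawn. The hormone axis list, with 1 tested gene, is not drawn either.

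Partners and relatives of single members were compared with them. Of 6 tested NF-kappaB genes, 4 were highest in sample 1 and 1 in sample 4, against 24.6% and 31.1% of all tested. Their sample 4 median was -0.27. It was 0.01 without sample 1, when 2 were highest in sample 4, though fewer samples make each more often the highest. Rela, the NF-kappaB subunit that activates transcription, varied little (732, 649, 673 and 681 units), while Ikbkb, the kinase that marks Nfkbia protein for destruction, gave 162, 133, 102 and 52.6 units, lowest in sample 4. Of 16 tested family relatives of the members, 2 were highest in sample 4, against 31.1% of all tested, with a median of -0.01 (0.09 with median scaling). Without sample 3, 5 were highest in sample 4, with the same limit on fewer samples. Over all 4 samples, the 2 highest in sample 4 were Klf13 (751, 620, 752 and 963 units) and Tsc22d4 (704, 838, 768 and 1154 units). Both were named after their values had been seen. Klf5 and Klf3 were highest in sample 3, at 271 and 276 units, as was Klf7, at 316 units. Akt1 and Akt2, kinases related to Sgk1, gave 677 and 341 units in sample 4, inside their ranges in samples 1 to 3.

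Immediate early genes, which neurons switch on within minutes of activity, gave their highest signal in sample 4 for 7 of 9 tested genes, against 31.1% of all tested probe sets, with a median deviation of 0.48. This list too was chosen with earlier results of these data known. As for Pdk4, the mean of Fos over samples 1 to 3 lay below 104 units, so Fos passed the signal filter through sample 4 alone. Of the measured genes too dim for the test, Homer1, Ptgs2 and Atf3 were lowest in sample 4, and Egr2 and Klf4 were highest there. For 2 of the 7 the lead over sample 1 was slight, Btg2 (678 against 676 units) and Dusp6 (682 against 669 units). None of the 9 passed the test after adjustment, and 2 had an unadjusted p under 0.05, Fos and Junb (limma adjusted p = 0.695 and 0.669). Fos gave 157, 55.5, 67.7 and 354 units and Junb 293, 189, 164 and 573 units. Unlike Sgk1, both were higher in sample 1 than in samples 2 and 3. Jun was lowest in sample 4 (347, 360.0, 398 and 203 units).

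The genes most like Sgk1 and Klf9 over the 4 samples were taken from 4823 other tested genes by the root mean square difference of centred log2 signals. For Sgk1 they were the ubiquitin ligase gene Znrf1 (389.8, 422, 559.6 and 1068 units; difference 0.117), Clip3 (0.121), Ighd (0.125), Pex11a (0.127) and the integrin gene Itga7 (0.178), each highest in sample 4. For Klf9 (93528_s_at) they were Cyp2c39 (152, 158, 325 and 347 units; difference 0.0844), the amino acid transporter gene Slc38a2 (0.114), Sox11 (0.136), Pcm1 (0.157) and Pde1a (0.159). None of the 10 is on the lists of corticosteroid genes used here. Clip3 gave 88.1, 94.5, 86.25 and 238 units in samples 1 to 4, so it passed the signal filter through sample 4 alone. Likeness was measured over 4 values only.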

How the data were processed

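Total RNA of 4 mouse hippocampus samples was read on 1 array each. The authors deposited linear intensities for 12488 probe sets per array, 66 of them controls, and from the values the arrays had been scaled by the authors to a shared level before deposit (trimmed means of 249.6 to 249.9 units). The software is not given in the sources used here. Control probe sets were left out, quantile normalization was done in limma 3.58.1 (R 4.3.3), values under the 25th percentile (27.7 units) were raised to it, and log2 was taken. Floors understate the range of dim genes. Symbols were updated through the Entrez identifier for 10817 of 10833 probe sets with 1 symbol, and 396 with several and 1193 with none were not named. A gene in a list is shown by its brightest probe set. Variances were tested against the robust intensity trend (one-sided F test, 3 and 5.06 degrees of freedom, Benjamini-Hochberg at 0.05 over 6210 probe sets), a step tested on simulated data. Pathway and marker lists came from general knowledge. The members and the lists were chosen with earlier results of these data known. Named were all member probe sets, and of each pathway list the first 2 tested genes and the 4 with the largest range, of each marker list the brightest and the widest, and the 5 nearest patterns of Sgk1 and Klf9; exceptions are stated, and not every gene so named is printed. Alternatives covered normalization, floor, filter, variance model, the choice of probe set and leaving out each sample. The number of arrays limits the precision.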

Additional observations from a re-analysis of the deposited data

Results flagged for a closer look

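None of the 11 member probe sets had a sample whose gap to the nearest other exceeded, as a share of the range on the log2 scale, Dixon's 95% limit for 4 samples. Sgk1 came closest, at 0.824, and exceeded it on the linear scale, at 0.890. Of 65 probe sets examined, members and named genes of the lists, 2 exceeded the limit, and chance gives about 1 in 20. Ikbkg, the regulatory subunit of the kinase that acts on Nfkbia protein, was high in sample 1, with a gap of 0.871 of its range (176 units against 119.5 to 125.6). Folr1, a choroid plexus marker, was low in sample 3, with a gap of 0.835 (12.4 units, below the floor, against 128 to 174). Among all 6210 tested probe sets, 6.05% exceeded it.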

How the results depend on the processing

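The 8 probe sets tested were highest in sample 4 under each normalization tried. The same held under each floor, filter and variance model and without sample 1, 2 or 3. Those settings cannot, or can barely, change which sample is highest, so they do not test it. When the probe sets of a gene were replaced by their median, 5 of 6 genes were highest in sample 4, Zbtb16 being the exception (sample 4 deviation -0.17 in place of 0.80). The median deviation in sample 4 ranged from 0.65 without sample 1 to 0.88 with median scaling, which moved the median of all probe sets by itself from 0.02 to 0.11. No member passed the adjusted test under any setting. The number with an unadjusted p under 0.05 was 2 in the main setting, 0 with no filter (where 1627 of 12422 probe sets had such a p), 1 with no intensity trend (Sgk1), 3 with median scaling and with a filter at the 25th percentile of means (Zbtb16 92202_g_at being added in both, and 529 of all probe sets tested having such a p under that filter), and 1 to 3 when 1 sample was left out. The deviation of Tsc22d3 in sample 4 was -1.76, and -0.64 with a floor at the 40th percentile. Replicate numbers pair no samples: No paired analysis was possible because all samples form 1 group. Dim probe sets limit what can be said of Nr3c1, Tsc22d3 and the second Zbtb16 probe set.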
